A study of Mus musculus with 12 samples.

Results

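The collagen chains were every row of the count files whose gene symbol is Col followed by a number, a and a second number. This rule took 44 of the 26699 rows and used no measured value. The chains were grouped by the structure their protein forms: 11 fibrillar chains, 9 network chains, 6 type VI chains, 9 FACIT chains (fibril-associated collagens with interrupted triple helices) and 9 others. Synovium, the membrane that lines joints, was taken whole from adult wild-type C57BL/6 mice and kept ex vivo for 4 h either with 100 nM CGRP (calcitonin gene-related peptide, a neuropeptide of sensory nerves) or without it, then digested with collagenase, and macrophages with surface MHC class II were sorted. Cells without CD11c are called IAIE and cells with CD11c are called CD11c, as in the sample titles. The 4 groups were IAIE control, IAIE CGRP, CD11c control and CD11c CGRP, each with 3 libraries and none with a genetic modification. The control mice are titled healthy, and every group, control included, had been through the 4 h incubation and the digestion.

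Collagens are triple helices of 3 alpha chains, each made from its own gene. Fibrillar chains (types I, II, III, V, XI and others) assemble into the banded fibrils that carry tension, network chains such as type IV form the sheets of basement membranes, type VI chains build beaded microfilaments around cells, and FACIT chains decorate the surface of fibrils. In synovium fibroblasts are the best known source of fibrillar and type VI collagen, and vessel walls of type IV. Macrophages take up and degrade collagen, and have been described to express type VI and some other chains.

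Library totals ran from 2127191 to 5649698 counts, of which the chains took between 443 and 5356 counts (0.0137% to 0.162%). Levels are given as CPM, read counts relative to the library total after TMM scaling, and 3 values in a row are always replicates 1, 2 and 3. At this depth 3 counts, taken as the floor of detection, equal between 0.534 and 1.34 CPM, which covers counting error only. The 10 macrophage markers were detected in all 12 libraries and summed to between 6518 and 11541 CPM, lowest in CD11c CGRP (7774, 7596 and 6518 CPM). By edgeR 8 of the 10 were lower in CD11c than in IAIE cells in control (10.9% of all tested genes) and 6 with CGRP (8.51%), and 0 were higher. Itgax, which encodes CD11c, was higher in CD11c than in IAIE cells (log2 fold change 5.33 in control, adjusted p = 2.99e-08), in the direction of the sort. With CGRP Itgax fell in CD11c cells (-1.03, adjusted p = 0.0288). H2-Ab1, an MHC class II gene, fell in IAIE and CD11c cells (-0.74 and -0.66, adjusted p = 0.000316 and 0.000574). No source states that the libraries of a group came from separate animals, so the p-values measure the spread between libraries, which may be technical. Since the cells were sorted in bulk, fewer cells of a type and less RNA per cell cannot be told apart.

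The first question was how the 4 classes stood in each library. In IAIE cells the summed type VI level was 21.7, 89.4 and 274 CPM in control and 7.15, 7.05 and 12.3 CPM with CGRP, and in CD11c cells it was 3.26, 6.78 and 4.08 CPM in control and 73.6, 218 and 45.01 CPM with CGRP. Type VI was thus low in 6 libraries, IAIE CGRP and CD11c control, and higher in each of the other 6, with no overlap in either subset. The mean difference, CGRP minus control on the log2(CPM + 1) scale, was -3.11 in IAIE cells and 4.04 in CD11c cells.

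The summed fibrillar level was 129, 1369 and 338 CPM in IAIE control and 129.7, 56.1 and 119 CPM in IAIE CGRP, and the groups overlapped because IAIE control replicate 1 lay no higher than IAIE CGRP replicate 1. In CD11c cells it was 41.2, 46.8 and 54.3 CPM in control and 305, 192 and 72.2 CPM with CGRP, without overlap. The log2 differences were -2.03 in IAIE and 1.76 in CD11c cells. IAIE control replicate 2 stood apart from every other library by its fibrillar sum.

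Network sums did not separate control from CGRP in either subset. Their sums were 28.2, 17.2 and 120.0 CPM in IAIE control, 48.4, 33.8 and 17.2 CPM in IAIE CGRP, 115, 93.3 and 77.2 CPM in CD11c control and 174, 66.1 and 211 CPM in CD11c CGRP. The log2 differences were -0.35 in IAIE and 0.51 in CD11c cells, and the first was positive without IAIE control replicate 3 (0.45) or IAIE CGRP replicate 3 (0.05). FACIT sums had the narrowest range in IAIE cells, with 44.05, 41.6 and 33.1 CPM in control and 30.7, 28.9 and 23.005 CPM with CGRP (log2 difference -0.51, no overlap, but 0.71 without Col14a1), and were 4.08, 11.2 and 14.8 CPM in CD11c control and 33.4, 27.97 and 14.6 CPM in CD11c CGRP (1.33, with overlap). With 3 libraries a group, an exact permutation test of such a sum cannot go below 0.1, and none was made.

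**Figure D1:**
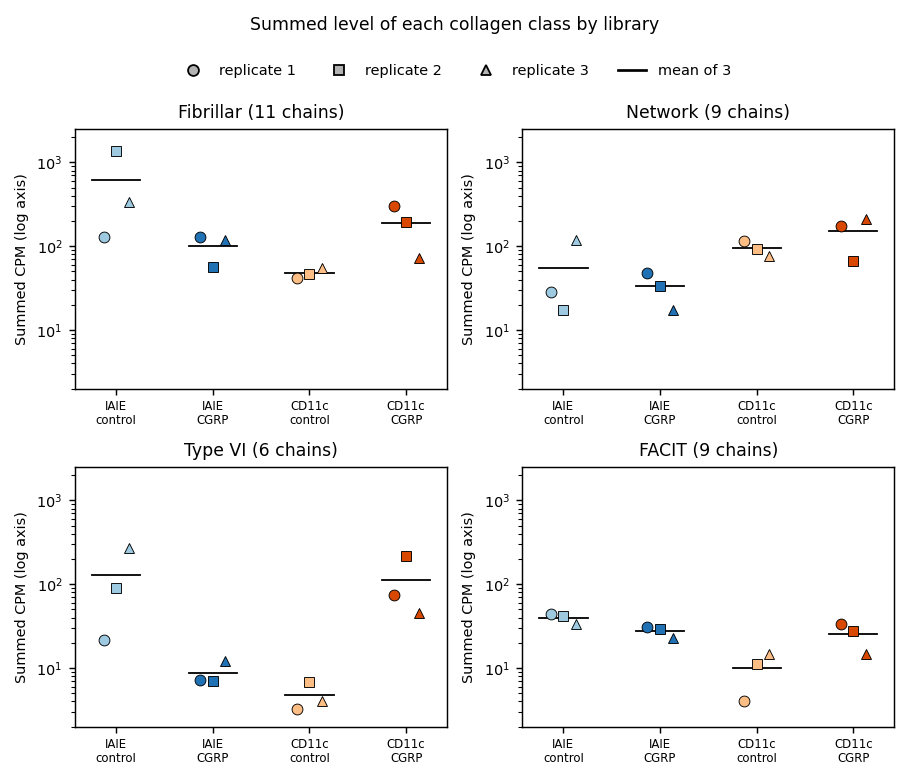
Summed level of the 4 collagen classes in each library, as CPM on a log axis, with 1 panel a class, 1 symbol a replicate and a line at the mean of 3 libraries. Type VI lay between 3.26 and 12.3 CPM in all IAIE CGRP and CD11c control libraries and between 21.7 and 274 CPM in the other 6, whereas network sums of control and CGRP overlapped in both subsets.

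As a share of all collagen counts in a library, the make-up differed between subsets before CGRP. In CD11c control, network chains took 63.9, 55.6 and 48.8% of the collagen counts and fibrillar chains 22.8, 27.9 and 34.3%. In IAIE control, fibrillar chains took 52.99, 89.2 and 41.7% and network chains 11.6, 1.12 and 14.8%. All 3 CD11c control libraries were therefore led by network chains and all 3 IAIE control libraries by fibrillar chains. With CGRP the 3 CD11c libraries no longer shared a leading class: fibrillar chains led in replicate 1 (48.1%), type VI in replicate 2 (40.8%) and network chains in replicate 3 (52.8%). In IAIE CGRP, fibrillar chains led in every library (53.03, 37.6 and 62.2%). Shares within a library are tied to each other, so that a larger share of 1 class lowers the others.

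**Figure D2:**
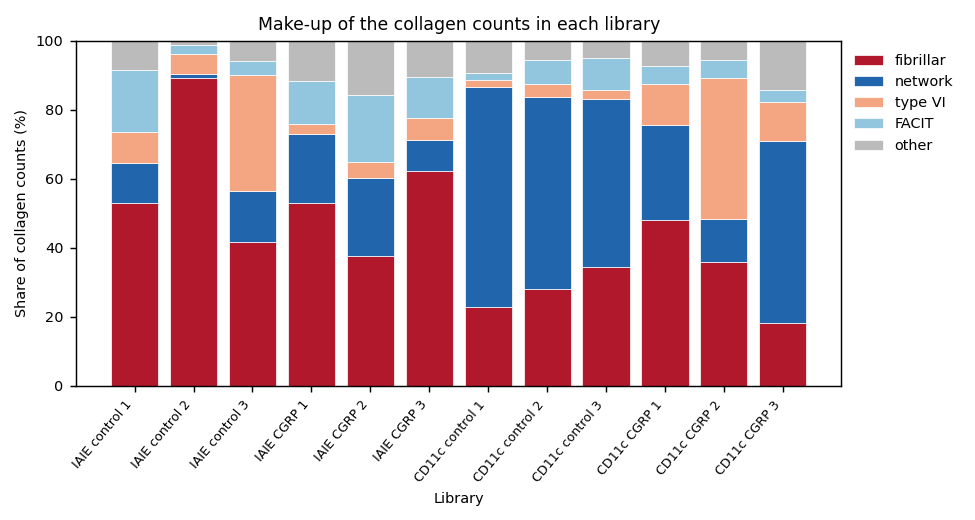
Share of each library's collagen counts (%) taken by fibrillar, network, type VI, FACIT and other chains, 1 bar a library, bars summing to 100. Network chains made up 48.8% to 63.9% of the CD11c control bars, and the 3 CD11c CGRP bars were each led by another class.

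Gene by gene, 23 of the 44 chains passed the filter on low counts and were tested with edgeR among 11927 genes, and p-values were adjusted over all of these. In IAIE cells 9 of the 23 fell with CGRP, where 3.89% of all tested genes fell. No chain rose in edgeR, where 5.32% of all tested genes rose. At an unadjusted p under 0.05, 11 chains were lower and 0 higher by edgeR, and DESeq2 and limma-voom also called 0 higher. In CD11c cells 8 of the 23 rose (6.29% of all tested genes rose) and none fell in edgeR (4.59% of all tested genes fell), with 13 chains higher and 0 lower at an unadjusted p under 0.05 and 0 called lower by DESeq2 or limma-voom. By limma-voom with quality weights 2 of the 9 calls in IAIE cells (Col5a2 and Col14a1) and 2 of the 8 in CD11c cells (Col5a2 and Col18a1) held. The median log2 fold change of the tested chains was -1.55 in IAIE and 1.99 in CD11c cells, against -0.02 and 0.00 over all tested genes. A chain passed the filter by the groups in which it was high. The counts of calls and the medians, here and in the comparisons below, therefore describe the 23 chains only. Groups did not overlap for 8 chains lower in IAIE CGRP (12% of all tested genes) and for none higher (12.9%), and for 11 chains higher in CD11c CGRP (15.4%) and none lower (13.8%).

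**Figure D3:**
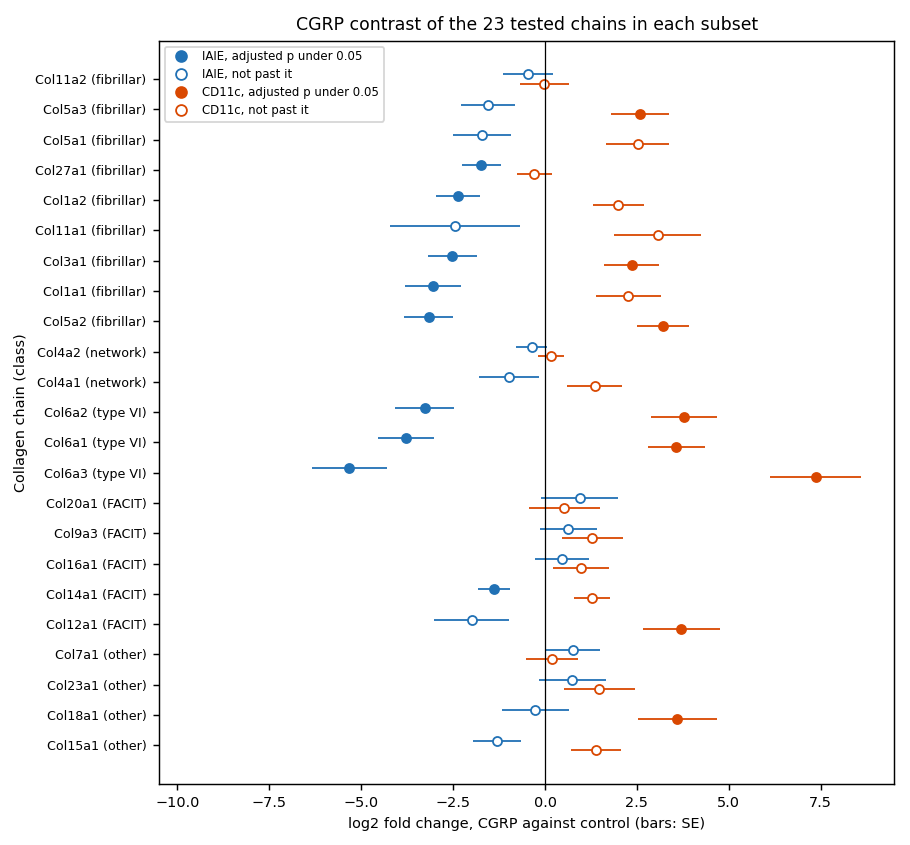
Log2 fold change of CGRP against control for the 23 tested chains, ordered by class, in IAIE (blue) and CD11c (orange) cells; bars are SE and filled points passed an adjusted p under 0.05. All 3 type VI chains are filled on both sides of 0, and neither network chain is filled in either subset.

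Type VI was the class in which every tested chain passed the threshold in both subsets. Its 3 main chains, Col6a1, Col6a2 and Col6a3, are the partners of the common type VI heterotrimer, and Col6a3 is by far the longest of them. Col6a1 (chr10:76708792-76726168) and Col6a2 (chr10:76595762-76623630) lie on the minus strand of the same chromosome with 85161 bases between them, and Col6a3 lies on the minus strand of another (chr1:90765923-90843971, all GRCm38, the build named mm10 in the submitters' notes).

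Because these chains shared their direction in each subset, the 250 bases before the start of Col6a2 and Col6a3 are shown, beside those of Col3a1 and Col5a3, fibrillar chains that also rose in CD11c cells. Windows that ran over an annotated exon (those of Col6a1, Col18a1 and Col1a2, and another window of Col6a2) are left out. The windows are chr10:76623631-76623880 on the minus strand for Col6a2, chr1:90843972-90844221 on the minus strand for Col6a3, chr1:45311288-45311537 on the plus strand for Col3a1 and chr9:20815068-20815317 on the minus strand for Col5a3. Sequences are from RefSeq on GRCm38.p6, 5′ to 3′ on the gene's strand, and capitals mark a match to a motif searched on both strands. The TATA box was searched as TATAAA, the second motif as the CCAAT box, and the GC box as GGGCGG. The full cAMP response element was searched as TGACGTCA, its first letters alone, present in every full element, as TGACG, and the site of AP-1 factors as TGANTCA.
Col6a2: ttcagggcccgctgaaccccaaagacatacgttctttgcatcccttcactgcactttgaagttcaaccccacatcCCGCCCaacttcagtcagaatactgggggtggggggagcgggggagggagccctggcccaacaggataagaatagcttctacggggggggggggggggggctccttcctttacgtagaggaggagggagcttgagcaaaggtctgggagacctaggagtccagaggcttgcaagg
Col6a3: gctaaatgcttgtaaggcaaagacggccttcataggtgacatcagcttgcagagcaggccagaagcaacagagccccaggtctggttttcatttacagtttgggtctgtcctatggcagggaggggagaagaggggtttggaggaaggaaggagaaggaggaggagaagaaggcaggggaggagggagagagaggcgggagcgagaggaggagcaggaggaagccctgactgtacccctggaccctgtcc
Col3a1: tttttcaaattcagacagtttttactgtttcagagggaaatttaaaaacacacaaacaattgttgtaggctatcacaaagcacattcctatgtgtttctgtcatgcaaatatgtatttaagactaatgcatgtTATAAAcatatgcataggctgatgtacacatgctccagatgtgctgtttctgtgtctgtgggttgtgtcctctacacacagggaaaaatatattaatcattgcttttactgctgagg
Col5a3: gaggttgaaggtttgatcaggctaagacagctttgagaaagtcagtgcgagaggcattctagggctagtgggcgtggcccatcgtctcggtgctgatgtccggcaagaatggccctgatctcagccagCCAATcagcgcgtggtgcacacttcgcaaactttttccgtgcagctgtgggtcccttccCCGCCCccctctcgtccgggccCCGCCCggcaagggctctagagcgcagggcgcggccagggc

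The Col6a2 window held 1 GC box on the opposite strand and the Col6a3 window none of the motifs, so these 2 chains shared no match there. Col3a1 held a TATA box and Col5a3 a CCAAT box and 2 GC boxes. RefSeq windows were found for 35 of the 44 chains, and among these 21 held a GC box (60.0%, against 32.7% of 32851 windows of all genes), 13 a CCAAT box (37.1% against 33.8%), 5 a TATA box (14.3% against 12.4%), 4 TGACG (11.4% against 17.8%), 1 an AP-1 site (2.86% against 6.75%) and 0 a full cAMP response element (1.55% of all windows). A match is a run of letters and not a shown binding site, and a window without a match says only that the letters are not in these 250 bases.

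Col6a3 had the largest fitted change of the 23 tested chains in each subset. In IAIE cells it stood at 5.58, 17.5 and 142 CPM in control and 2.38, 1.21 and 0.566 CPM with CGRP. Among CD11c libraries Col6a3 was at 0.408, 0 and 0.644 CPM in control, which is 4 counts in the 3 libraries together, and 31.5, 127 and 30.2 CPM with CGRP. Neither pair of groups overlapped. It fell in IAIE cells (log2 fold change -5.32 ± 1.02, adjusted p = 0.00185) and rose in CD11c cells (log2 fold change 7.36 ± 1.25, adjusted p = 0.000488). By pooled counts the ratio in CD11c cells was 163 (exact 95% interval 63.2 to 598, counting error only), and the fitted fold change depends on the prior count. Without IAIE control replicate 3 the log2 fold change in IAIE cells was -3.09 (adjusted p = 0.0148). In CD11c cells it was 6.34 with CGRP replicate 2 of that subset left out, and 6.69 and 8.41 with its control replicate 2 or 3 left out.

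Col6a1 was at 4.03, 27.8 and 64.01 CPM in IAIE control and 1.85, 2.43 and 2.45 CPM in IAIE CGRP, without overlap, and fell (log2 fold change -3.78 ± 0.76, adjusted p = 0.00281). In CD11c cells it was at 0.408, 2.10 and 3.004 CPM in control and 23.6, 42.1 and 7.65 CPM with CGRP, again without overlap, and rose (log2 fold change 3.57 ± 0.78, adjusted p = 0.0043). The 3 IAIE CGRP libraries were close to each other, whereas the 3 IAIE control libraries spread over more than an order of magnitude. The log2 fold change was -2.78 without IAIE control replicate 3 in IAIE cells and 2.94 without CD11c CGRP replicate 2 in CD11c cells, and both passed the threshold (adjusted p = 0.0234 and 0.0217).

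For Col6a2 the IAIE groups overlapped, with 5.27, 36.7 and 64.5 CPM in control and 1.06, 2.92 and 6.41 CPM with CGRP. It nevertheless fell in the fit (log2 fold change -3.27 ± 0.80, adjusted p = 0.0121). In CD11c cells its levels of 1.63, 3.04 and 0.429 CPM in control and 18.03, 48.02 and 5.52 CPM with CGRP did not overlap, and it rose (log2 fold change 3.79 ± 0.90, adjusted p = 0.00833). Col6a1 and Col6a3 passed the threshold in both subsets with each of the 12 libraries left out in turn. None of the 3 chains passed it by limma-voom with quality weights (adjusted p from 0.155 to 0.223 in IAIE and from 0.179 to 0.211 in CD11c cells), and with 1 surrogate variable Col6a2 and Col6a3 did not pass in IAIE cells (0.164 and 0.115). The call of Col6a2 in the IAIE subset was lost without IAIE control replicate 3, IAIE CGRP replicate 1 or IAIE CGRP replicate 2 (adjusted p from 0.0554 to 0.0735), and its rise in CD11c cells without CD11c control replicate 3 or CD11c CGRP replicate 2 (0.0556 and 0.0550). Its log2 fold change in IAIE cells was -2.52 without IAIE control replicate 3 and -4.09 without IAIE CGRP replicate 3, and in CD11c cells 2.78 without CD11c CGRP replicate 2 and 4.67 without CD11c control replicate 2.

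All 3 type VI chains were highest in IAIE control replicate 3 among the IAIE control libraries and in CD11c CGRP replicate 2 among the CD11c CGRP libraries. In that last library the summed chondrocyte markers were also highest, at 132, 605 and 13.5 CPM over the CD11c CGRP libraries against 6.94, 3.04 and 5.79 CPM in CD11c control, and so were the fibroblast markers, at 219, 343 and 70.8 CPM against 29.8, 12.6 and 25.3 CPM. Col6a1 and Col6a3 passed the threshold in CD11c cells without that library as well, and the CD11c CGRP libraries that remain also lay above every CD11c control library in both marker sums. The part of these markers in the type VI values was not tested. The 3 remaining type VI chains, Col6a4, Col6a5 and Col6a6, which can stand in for the Col6a3 chain, did not pass the filter on low counts, with 35, 20 and 46 counts in all 12 libraries.

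**Figure D4:**
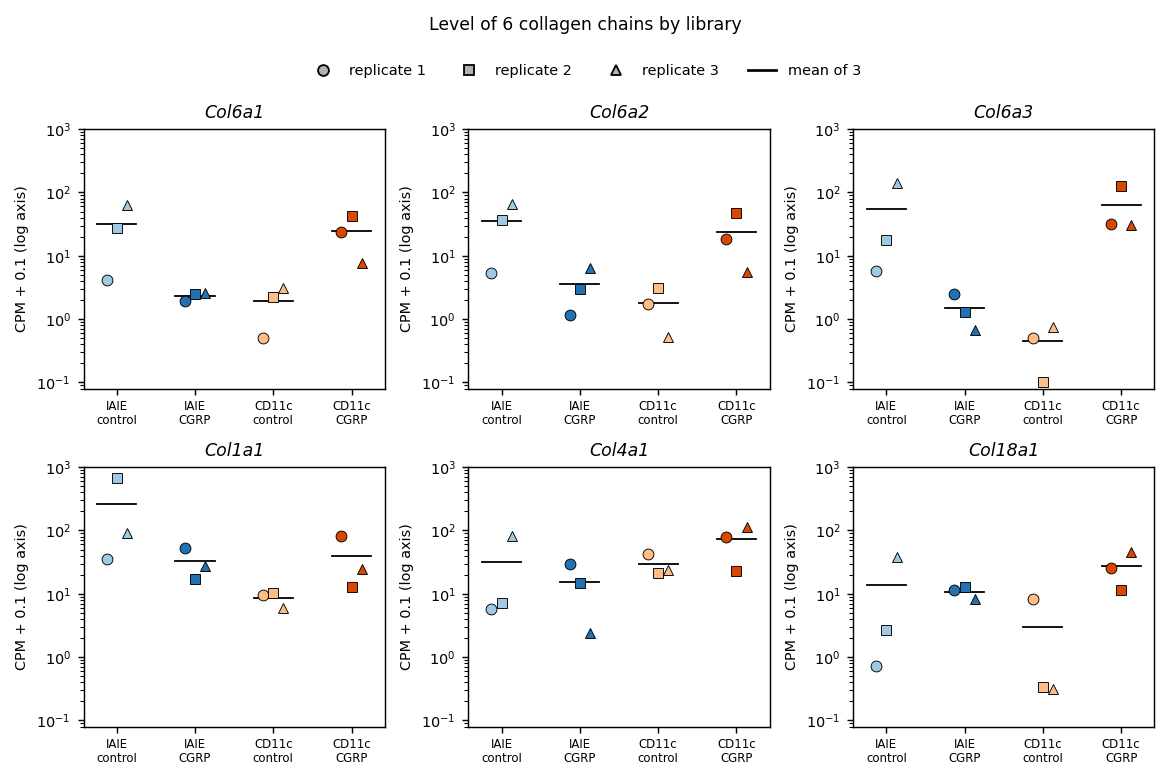
Level of Col6a1, Col6a2, Col6a3, Col1a1, Col4a1 and Col18a1 in each library, as CPM + 0.1 on a log axis, 1 symbol a replicate and a line at the mean of 3 libraries. The type VI chains are high in IAIE control and CD11c CGRP; Col1a1 is led by IAIE control replicate 2 at 670.0 CPM, and Col4a1 and Col18a1 are highest in CD11c CGRP replicate 3.

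Of the 9 tested fibrillar chains, 5 fell with CGRP in IAIE cells (median log2 fold change -2.37) and 3 rose in CD11c cells (median 2.35). Col1a1 and Col1a2 encode the chains of type I collagen, the main collagen of bone, tendon and joint capsule. Col1a1 (chr11:94936224-94953042) was at 35.1, 670.0 and 91.8 CPM in IAIE control and 53.5, 17.01 and 27.2 CPM in IAIE CGRP. Col1a2 (chr6:4504814-4541544) was at 28.5, 284 and 51.03 CPM and 27.5, 14.1 and 29.04 CPM in the same groups. For both chains the groups overlapped and control replicate 2 was several times above all others. Both fell in the fit, Col1a1 with log2 fold change -3.05 ± 0.77, adjusted p = 0.0147 and Col1a2 with log2 fold change -2.37 ± 0.61, adjusted p = 0.0165. Without IAIE control replicate 2 the log2 fold changes shrank to -0.93 (adjusted p = 0.406) and -0.72 (adjusted p = 0.417). The calls were also lost without IAIE CGRP replicate 2 (0.0859 and 0.0938) and, for Col1a1, without IAIE CGRP replicate 3 (0.0669).

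In CD11c cells the type I chains did not pass the threshold although their groups did not overlap. Col1a1 was at 9.38, 10.3 and 5.79 CPM in control and 82.3, 12.6 and 24.9 CPM with CGRP (log2 fold change 2.27 ± 0.88, adjusted p = 0.114). Col1a2 was at 6.12, 5.85 and 10.3 CPM and 43.9, 36.4 and 11.03 CPM (log2 fold change 1.99 ± 0.69, adjusted p = 0.0705).

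Col3a1 (chr1:45311538-45349706) encodes type III collagen, a fine fibril that is mixed with type I in soft tissue. It was at 27.6, 356 and 105 CPM in IAIE control and 34.1, 15.3 and 35.8 CPM in IAIE CGRP, with overlap, and fell (log2 fold change -2.52 ± 0.67, adjusted p = 0.0217). In CD11c cells it was at 6.53, 11.9 and 9.87 CPM in control and 101, 34.9 and 12.6 CPM with CGRP, without overlap, and rose just past the threshold (log2 fold change 2.35 ± 0.75, adjusted p = 0.0489). Without IAIE control replicate 2 the log2 fold change in IAIE cells was -1.18 (adjusted p = 0.302), and that call was lost as well without IAIE CGRP replicate 1, 2 or 3 (0.0522, 0.112 and 0.0534). The call in CD11c cells was lost under 9 of the 12 omissions (adjusted p from 0.0521 to 0.375, the highest without CD11c CGRP replicate 1, where the log2 fold change was 1.23) and held without IAIE control replicate 1, IAIE control replicate 2 or CD11c CGRP replicate 3. It was lost as well with RLE scaling (0.0509), upper-quartile scaling (0.0518), thinned libraries (0.0672), DESeq2 (0.0703), 1 surrogate variable (0.187) and limma-voom (0.315).

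The type V chains, which nucleate fibrils and set their width, included Col5a2, the only fibrillar chain whose calls with CGRP held with each library left out. Col5a2 (chr1:45374321-45503282, next to Col3a1 with 24614 bases between them) was at 17.99, 20.6 and 24.6 CPM in IAIE control and 1.85, 0.243 and 4.53 CPM in IAIE CGRP. Among CD11c libraries it was at 4.49, 1.64 and 0.644 CPM in control and 28.8, 22.3 and 5.52 CPM with CGRP. No group of 1 treatment reached into the other in either subset, and IAIE control replicate 2 did not stand out. Col5a2 fell in IAIE cells (log2 fold change -3.17 ± 0.68, adjusted p = 0.00439) and rose in CD11c cells (log2 fold change 3.21 ± 0.71, adjusted p = 0.00453), without a library that decided either call. The log2 fold change was -4.31 without IAIE CGRP replicate 3 and 4.02 without CD11c control replicate 1. With 1 surrogate variable the fall had an adjusted p of 0.0547.

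Col5a3 (chr9:20770050-20815067) was at 2.45, 1.64 and 1.93 CPM in CD11c control and 18.4, 13.1 and 4.27 CPM in CD11c CGRP and rose (log2 fold change 2.58 ± 0.78, adjusted p = 0.0386). In IAIE cells it was at 3.41, 5.73 and 25.5 CPM in control and 0.529, 4.37 and 6.22 CPM with CGRP (log2 fold change -1.55 ± 0.73, adjusted p = 0.22). Its call was lost without CD11c control replicate 1, 2 or 3 or CD11c CGRP replicate 1 or 2 (adjusted p from 0.0797 to 0.155). Col5a1, the third chain, did not pass the threshold in either subset (log2 fold change -1.72 ± 0.78, adjusted p = 0.203 in IAIE; log2 fold change 2.52 ± 0.85, adjusted p = 0.0665 in CD11c).

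Col27a1 (chr4:63214004-63334991), a fibrillar chain known from cartilage, fell in IAIE cells from 8.69, 6.88 and 12.1 CPM in control to 3.18, 2.19 and 2.83 CPM with CGRP, without overlap (log2 fold change -1.73 ± 0.53, adjusted p = 0.0449). Its levels in CD11c cells overlapped, with 4.90, 6.78 and 16.1 CPM in control and 3.84, 11.6 and 7.83 CPM with CGRP (log2 fold change -0.29 ± 0.48, adjusted p = 0.798). The fall was lost under 8 of the 12 omissions (any IAIE library, CD11c control replicate 2 or CD11c CGRP replicate 3, adjusted p from 0.0535 to 0.150). The type XI chains Col11a1 and Col11a2, partners of type II collagen in cartilage, did not pass the threshold with CGRP. Col11a1 was at 2.86, 0 and 0 CPM in CD11c control and 7.10, 11.9 and 1.07 CPM in CD11c CGRP (log2 fold change 3.06 ± 1.18, adjusted p = 0.113), and Col11a2 lay between 0.486 and 7.92 CPM in all 12 libraries.

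Only 2 of the 9 network chains were tested, and neither passed the threshold with CGRP. Col4a1 and Col4a2 make the main type IV heterotrimer of basement membranes. Their genes lie head to head (Col4a1, chr8:11198423-11312826, minus strand; Col4a2, chr8:11312805-11449287, plus strand), and the ends overlap by 22 bases. Col4a1 was at 5.58, 7.17 and 81.02 CPM in IAIE control and 29.1, 14.6 and 2.26 CPM in IAIE CGRP (log2 fold change -0.99 ± 0.82, adjusted p = 0.54). In the CD11c subset it was at 42.4, 21.5 and 23.6 CPM in control and 79.8, 22.5 and 115 CPM with CGRP (log2 fold change 1.35 ± 0.75, adjusted p = 0.321). In both subsets the groups overlapped. Col4a2 was at 15.2, 8.03 and 35.8 CPM in IAIE control, 16.9, 15.3 and 12.1 CPM in IAIE CGRP, 68.1, 70.6 and 50.4 CPM in CD11c control and 86.3, 34.7 and 88.2 CPM in CD11c CGRP (log2 fold change -0.36 ± 0.41, adjusted p = 0.677 in IAIE; log2 fold change 0.15 ± 0.36, adjusted p = 0.865 in CD11c).

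In CD11c CGRP both type IV chains were high in replicates 1 and 3 and lower in replicate 2, whereas the type VI chains were highest in replicate 2. The summed mural markers were likewise lowest in replicate 2, at 375, 58.9 and 204 CPM against 34.7, 26.9 and 34.8 CPM in CD11c control, and so were the endothelial markers at 146, 55.4 and 148 CPM against 234, 37.2 and 37.1 CPM. Within the mural sums of CD11c CGRP, Cspg4 was at 58.7, 50.7 and 37.7 CPM and Myh11 at 205, 0 and 72.4 CPM. Cspg4 thus made up most of the sum in replicate 2. The part of these markers in the network values was not tested.

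The FACIT class had 1 chain that fell and another that rose among 5 tested (median log2 fold change 0.47 in IAIE and 1.28 in CD11c cells). Col14a1 (chr15:55307750-55520803), which binds the surface of type I fibrils, was at 24.8, 36.98 and 22.8 CPM in IAIE control and 12.4, 13.4 and 6.60 CPM in IAIE CGRP, without overlap, and fell (log2 fold change -1.40 ± 0.43, adjusted p = 0.0493). In CD11c cells it was at 0.816, 5.85 and 2.79 CPM in control and 11.7, 8.17 and 4.80 CPM with CGRP (log2 fold change 1.29 ± 0.49, adjusted p = 0.107). The fall stood close to the threshold and was lost under 8 of the 12 omissions (any IAIE library, CD11c control replicate 3 or CD11c CGRP replicate 2, adjusted p from 0.0551 to 0.205).

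Col12a1 (chr9:79598991-79718831), a relative of Col14a1 found in tendon and ligament, was at 0.408, 0 and 0.429 CPM in CD11c control, 3 counts in the 3 libraries together, and at 2.68, 7.18 and 1.78 CPM in CD11c CGRP. It rose (log2 fold change 3.70 ± 1.04, adjusted p = 0.0259), and by pooled counts the ratio was 13.5 (exact 95% interval 4.38 to 67.7, counting error only). Col12a1 passed the filter on low counts mainly through CD11c CGRP, the group in which it rose. The call was lost without CD11c control replicate 1, 2 or 3 or CD11c CGRP replicate 1 or 2 (adjusted p from 0.0582 to 0.198), with log2 fold changes from 2.92 without CD11c CGRP replicate 2 to 4.32 without CD11c control replicate 3. In IAIE cells it was at 2.48, 0.860 and 1.34 CPM in control and 0.265, 0.243 and 0.566 CPM with CGRP (log2 fold change -1.99 ± 1.02, adjusted p = 0.268). The other tested FACIT chains, Col9a3, Col16a1 and Col20a1, lay between 0 and 8.63 CPM and had adjusted p-values of 0.405 or more in both subsets.

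Among the 4 tested chains outside these classes, Col18a1 (chr10:77052178-77166548), the basement membrane collagen whose end is cleaved to endostatin, rose in CD11c cells. It was at 8.16, 0.234 and 0.215 CPM in control and 25.9, 11.4 and 45.7 CPM with CGRP (log2 fold change 3.60 ± 1.07, adjusted p = 0.0342). In IAIE cells it was at 0.620, 2.58 and 37.6 CPM in control and 11.4, 12.6 and 8.11 CPM with CGRP (log2 fold change -0.26 ± 0.92, adjusted p = 0.915), and IAIE control replicate 3 held most of the control level. Like the type IV chains, Col18a1 was highest in CD11c CGRP replicates 1 and 3. The rise was lost without CD11c control replicate 2 or 3 or CD11c CGRP replicate 1 or 3 (adjusted p from 0.0532 to 0.148), by DESeq2 (3.27, 0.138) and with libraries thinned to the lowest total (0.0507). Without CD11c control replicate 1 the log2 fold change was 6.78. Col7a1, which forms the anchoring fibrils of skin, Col15a1, a basement membrane chain, and Col23a1, a transmembrane chain, did not pass the threshold in either subset (adjusted p of 0.239 or more).

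The next comparison asked how the subsets differed at each treatment. Among control libraries 10 of the 23 chains were lower in CD11c than in IAIE cells (10.9% of all tested genes were lower) and 1 was higher (10.2% were higher). The lower chains were 6 fibrillar chains, all 3 type VI chains and Col14a1, and the higher was Col4a2 (log2 fold change 1.73 ± 0.39, adjusted p = 0.00355). Col1a1 had log2 fold change -4.99 ± 0.89, adjusted p = 0.000444, Col14a1 had log2 fold change -3.07 ± 0.49, adjusted p = 0.000135 and Col6a1 had log2 fold change -3.94 ± 0.78, adjusted p = 0.00119. For Col6a3 the pooled count ratio, IAIE over CD11c, was 126 (exact 95% interval 49.0 to 466, counting error only). The median over the 23 chains was -2.42 against -0.02 over all tested genes. The calls of Col5a1 and Col5a3 were each lost under 4 omissions (IAIE control replicate 2 or 3 or CD11c control replicate 1 or 2 for Col5a1, adjusted p from 0.0509 to 0.0699; IAIE control replicate 3 or any CD11c control replicate for Col5a3, 0.0592 to 0.331), and the other 9 calls held with each library left out. Without IAIE control replicate 2 the log2 fold changes of Col1a1, Col1a2 and Col3a1 were -2.89, -2.37 and -2.75, and without IAIE control replicate 3 those of Col6a1, Col6a3 and Col4a2 were -2.97, -4.92 and 2.45. With a CD11c control library left out, Col5a2 was at -4.17 (replicate 1), Col14a1 at -3.74 (replicate 2), Col6a2 at -5.21 and -3.77 and Col6a3 at -6.44 and -8.16 (replicates 2 and 3). By limma-voom with quality weights Col5a1, Col5a3 and all 3 type VI chains did not pass in this comparison (adjusted p from 0.0862 to 0.232).

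With CGRP, 7 chains were higher in CD11c than in IAIE cells (8.36% of all tested genes) and none was lower in edgeR (8.51%), with 0 lower at an unadjusted p under 0.05 and 0 called lower by DESeq2 or limma-voom. The 7 were Col4a2 (log2 fold change 2.25 ± 0.39, adjusted p = 0.000324), Col5a2 (log2 fold change 3.01 ± 0.67, adjusted p = 0.00322), Col6a1, Col6a2, Col6a3 (log2 fold change 5.55 ± 1.01, adjusted p = 0.000553), Col11a1 and Col12a1. The median over the 23 chains was 1.26, against 0.00 over all tested genes. Col11a1 stood at 0, 0.243 and 0 CPM in IAIE CGRP, a single count, and its pooled ratio was 80.7 (exact 95% interval 14.1 to 3224, counting error only). Col11a1 and Col12a1 exceeded 3 counts in only 4 libraries each, among them all 3 of CD11c CGRP. Both thus passed the filter mainly through the group in which they were then called higher. CGRP libraries of both subsets with a common replicate number deviated alike. With the number as a block within each treatment Col12a1 no longer passed the threshold (3.07, adjusted p = 0.0638, against 3.27 and 0.0242 without it). Col12a1 was also lost without IAIE CGRP replicate 1, 2 or 3 or CD11c CGRP replicate 1 or 2 (0.0532 to 0.192). Col6a2 was lost without IAIE CGRP replicate 1 or 2 or CD11c CGRP replicate 2 (0.0857 to 0.175) and by DESeq2 (0.0513). By limma-voom with quality weights only Col4a2 of the 7 held, and the others had adjusted p from 0.0514 to 0.227. Col4a2 was the only chain called higher in CD11c cells at both treatments by edgeR, and Col4a1 did not pass the threshold at either (log2 fold change -0.05 ± 0.79, adjusted p = 0.975 in control; log2 fold change 2.29 ± 0.79, adjusted p = 0.053 with CGRP). Without CD11c CGRP replicate 2 the log2 fold changes of Col6a1, Col6a2, Col6a3 and Col11a1 were 2.77, 1.70, 4.52 and 5.25, and without IAIE CGRP replicate 3 those of Col5a2 and Col6a2 were 4.16 and 3.53. With the block within each treatment Col4a1 passed the threshold among CGRP libraries (2.25, adjusted p = 0.0499).

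Whether CGRP acted differently in the 2 subsets was tested as the interaction, the log2 fold change in CD11c minus that in IAIE cells. It passed the threshold for 4 of the 23 chains, all positive (0.134% of all tested genes were positive and 0.0168% negative): Col5a2 (6.38 ± 0.98, adjusted p = 0.00898), Col6a1 (7.34 ± 1.09, 0.00788), Col6a2 (7.05 ± 1.20, 0.015) and Col6a3 (12.68 ± 1.61, 0.00133). The size for Col6a3 depends on the prior count, because both low groups lay near the floor. No chain was negative past the threshold by edgeR, DESeq2 or limma-voom, and 15 were positive and 0 negative at an unadjusted p under 0.05 in edgeR. Type I and III chains did not pass (adjusted p = 0.0765 for Col1a1, 0.0574 for Col1a2 and 0.0544 for Col3a1). The network chains had 2.34 ± 1.11 for Col4a1 (adjusted p = 0.567) and 0.52 ± 0.55 for Col4a2 (0.875). The interaction of Col6a2 was lost without CD11c control replicate 3 or IAIE CGRP replicate 2 (0.0934 and 0.0553), and the count rose to 7 without IAIE control replicate 1. With a library left out, the interaction of Col6a3 ran from 10.45 (IAIE control replicate 3) to 13.71 (CD11c control replicate 3), and that of Col5a2 reached 7.18 (CD11c control replicate 1) and 7.53 (IAIE CGRP replicate 3). By limma-voom with quality weights 0 chains passed, with 13 positive at an unadjusted p under 0.05, and by DESeq2 10 passed. With replicate number as a block within each treatment 8 passed: the same 4, and Col1a1 (4.52, adjusted p = 0.00374), Col1a2 (3.76, 0.0433), Col3a1 (4.27, 0.00883) and Col14a1 (2.80, 0.0303). The deviations of IAIE and CD11c libraries with a common number had r of 0.236, 0.130 and 0.142 with CGRP. In control r was 0.082, 0.043 and 0.071, all under 0.1.

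Within a library, the partners of a heterotrimer need not have been counted in a fixed ratio. Of the Col1a1 and Col1a2 counts combined, Col1a1 made up between 25.8% (51 of 198 counts in CD11c CGRP replicate 2, exact 95% interval 19.8 to 32.4) and 70.3% (2337 of 3326 in IAIE control replicate 2, 68.7 to 71.8). CD11c CGRP replicate 2 thus lay apart from CD11c CGRP replicates 1 and 3, where the share was 65.2% and 69.3%. Of the Col4a1 and Col4a2 counts, Col4a1 made up 38.4%, 23.4% and 31.9% in CD11c control and 48.0%, 39.4% and 56.6% in CD11c CGRP. The share of Col4a1 was therefore higher in each CD11c CGRP library than in any CD11c control library, while the IAIE libraries ranged from 15.8% to 69.3%. The nearest libraries of the 2 CD11c groups lay within counting error of each other. They were CD11c CGRP replicate 2 (39.4%, exact 95% interval 33.0 to 46.0) and CD11c control replicate 1 (38.4%, 32.6 to 44.5). Of the Col6a1 and Col6a2 counts, Col6a1 made up 43.3%, 43.1% and 49.8% in IAIE control and 56.7%, 46.7% and 58.1% in CD11c CGRP, the groups with the most counts of both. IAIE control replicate 1 had only 30 counts of the pair (exact 95% interval 25.5 to 62.6) and CD11c CGRP replicate 3 had 74 (46.1 to 69.5). The intervals cover counting error only.

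Per kilobase of exon in GENCODE vM21, the chain with the highest mean level differed between subsets. In IAIE control Col1a1 led with a mean of 40.5 CPM per kb, ahead of Col3a1 (16.6), Col1a2 (9.74) and Col6a1 (7.29). This order rested on replicate 2: without it the means were 9.66 for Col1a1, 7.77 for Col6a1, 6.76 for Col3a1 and 6.18 for Col6a3, and in replicate 3 Col6a1 (14.6) stood above Col1a1 (13.98). In CD11c control Col4a2 led with 9.53 CPM per kb, ahead of Col4a1 (3.91) and Col1a1 (1.29). In CD11c CGRP the highest means were those of Col4a2 (10.5) and Col4a1 (9.72), then Col1a1 (6.08), Col6a1 (5.58), Col6a3 (5.27) and Col3a1 (5.06). The spread between the 3 libraries exceeded the gaps among these last 4. Both type IV chains stood above all others only in replicate 3. In replicate 2 Col6a3 (10.7), Col6a1 (9.61) and Col6a2 (5.77) stood above Col4a2 (5.24) and Col4a1 (3.02). In replicate 1 Col1a1 (12.5) stood above Col4a1 (10.7). Col6a3 stood 5th of the 44 chains in IAIE control and in CD11c CGRP, 27th in IAIE CGRP and 32nd in CD11c control. Without IAIE control replicate 3 it stood 12th in IAIE control.

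The 21 untested chains had between 7 and 138 counts over all 12 libraries. They were Col2a1 and Col24a1 among fibrillar chains, Col4a3, Col4a4, Col4a5, Col4a6, Col8a1, Col8a2 and Col10a1 among network chains, the 3 minor type VI chains, Col9a1, Col9a2, Col19a1 and Col22a1 among FACIT chains, and Col13a1, Col17a1, Col25a1, Col26a1 and Col28a1. Col2a1, the main fibrillar collagen of cartilage, had 138 counts, of which 116 (84.1%) lay in CD11c CGRP replicate 2, the library with the highest chondrocyte marker sum. Col8a1, a short network chain of vessel walls, had 26 of its 45 counts in the same library and 15 in CD11c CGRP replicate 3. Col22a1 had 27 of 47 counts in IAIE CGRP replicate 1. These chains were left out by the filter on low counts. They were not tested, and no direction is given for them. Shared sequence was small for the tested chains: at most 1.12% of a chain's words of 31 bases (Col3a1, with Gm47302) occurred in transcripts of another gene, and exons of Col9a3 overlapped those of a neighbour most, over 6.07% of their bases. How the counting treated strand is not stated.

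Genes that act on collagen after transcription were set beside the chains. Of 12 tested collagen-modifying genes, 3 rose in IAIE cells and 0 fell by edgeR, and 4 rose and 1 fell in CD11c cells (median log2 fold change 0.20 and 0.25). Over all tested genes 5.32% rose and 3.89% fell in IAIE cells, and 6.29% rose and 4.59% fell in CD11c cells. P4ha1, a catalytic subunit of prolyl 4-hydroxylase, which stabilises the triple helix, was at 193, 189 and 168 CPM in IAIE control and 346, 371 and 368 CPM with CGRP, and at 237, 243 and 221 CPM and 441, 470.0 and 408 CPM in CD11c cells. It rose in both (log2 fold change 0.98 ± 0.12, adjusted p = 2.01e-05 in IAIE; log2 fold change 0.91 ± 0.12, adjusted p = 2.46e-05 in CD11c). Its relative P4ha2 rose more, from 4.03, 3.73 and 5.82 CPM to 34.9, 29.6 and 31.1 CPM in IAIE cells (log2 fold change 2.84 ± 0.32, adjusted p = 1.33e-05) and from 5.30, 8.18 and 3.43 CPM to 44.7, 32.7 and 35.4 CPM in CD11c cells (log2 fold change 2.73 ± 0.30, adjusted p = 6.48e-06). P4hb, the beta subunit, was the third gene that rose in both (log2 fold change 0.76 ± 0.16, adjusted p = 0.00319; log2 fold change 1.02 ± 0.16, adjusted p = 0.000168). These 3 genes encode subunits of prolyl 4-hydroxylase. The prolyl 3-hydroxylase genes P3h1 (log2 fold change -0.54 ± 0.63, adjusted p = 0.689) and P3h2 (log2 fold change -0.93 ± 0.55, adjusted p = 0.348) did not pass the threshold in IAIE cells.

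Plod2, a lysyl hydroxylase of collagen ends, was at 0, 0 and 0.429 CPM in CD11c control and 6.33, 6.19 and 4.80 CPM in CD11c CGRP and rose (log2 fold change 4.85 ± 1.09, adjusted p = 0.00533; pooled count ratio 32.5, exact 95% interval 8.74 to 273). Colgalt1, which adds galactose to hydroxylysine, fell in CD11c cells from 98.3, 94.7 and 87.5 CPM to 46.2, 43.8 and 56.9 CPM (log2 fold change -0.93 ± 0.16, adjusted p = 0.000426). Ppib, a prolyl isomerase, did not pass the threshold in either subset (0.14 ± 0.14 and -0.07 ± 0.14).

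Of 7 tested folding and export genes, 2 rose in IAIE (5.32% of all tested genes) and 0 in CD11c cells (6.29%), and 0 fell by edgeR. Both, Sec24d (log2 fold change 0.82 ± 0.21, adjusted p = 0.0176) and Sec23a (log2 fold change 0.80 ± 0.24, adjusted p = 0.0399), belong to the coat of export vesicles. Serpinh1, the collagen chaperone HSP47, was at 7.34, 3.51 and 3.86 CPM in CD11c control and 20.1, 6.68 and 21.9 CPM with CGRP (log2 fold change 1.79 ± 0.61, adjusted p = 0.0696). Of 4 tested procollagen processing genes, Pcolce, an enhancer of the C-propeptide protease, fell in IAIE cells from 14.3, 14.3 and 9.40 CPM to 6.09, 3.89 and 3.39 CPM (log2 fold change -1.52 ± 0.44, adjusted p = 0.0325), and Adamts2, the N-propeptide protease, rose in CD11c cells from 0, 0 and 0.215 CPM to 3.64, 5.20 and 5.16 CPM (log2 fold change 5.33 ± 1.19, adjusted p = 0.00533; pooled count ratio 52.8, exact 95% interval 9.17 to 2117).

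Among 4 tested cross-linking genes only Lox, lysyl oxidase, passed the threshold, in CD11c cells. It had no count in CD11c control and stood at 14.4, 22.3 and 2.31 CPM in CD11c CGRP, at least 15.2-fold higher against the floor of 3 counts per library (adjusted p = 0.00114). Of 7 tested collagen receptors, 0 passed in IAIE cells by edgeR, where 5.32% of all tested genes rose and 3.89% fell, and 2 rose in CD11c cells, where 6.29% rose. Ddr2, a receptor kinase for fibrillar collagen, rose from 1.22, 0.935 and 2.79 CPM to 14.0, 4.46 and 12.6 CPM (log2 fold change 2.59 ± 0.66, adjusted p = 0.0138) and Itga1, a subunit of a collagen-binding integrin, from 9.79, 19.2 and 12.7 CPM to 28.6, 29.5 and 46.1 CPM (log2 fold change 1.30 ± 0.39, adjusted p = 0.0349). Itgb1, the partner of that integrin (0.10 ± 0.11 in IAIE and 0.09 ± 0.11 in CD11c cells on the log2 scale), and Lair1, an inhibitory collagen receptor of leukocytes (-0.22 ± 0.35 and -0.52 ± 0.37), did not pass the threshold in either subset. No gene of these 5 lists passed the interaction test.

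Markers of other synovial cells differed between groups, and only some of the lists followed the chains. The 16 fibroblast markers summed to 121, 139 and 131 CPM in IAIE control, 1505, 24.1 and 26.8 CPM in IAIE CGRP, 29.8, 12.6 and 25.3 CPM in CD11c control and 219, 343 and 70.8 CPM in CD11c CGRP. Apart from IAIE CGRP replicate 1, they were low in the IAIE CGRP and CD11c control libraries and higher in the other 6, as the type VI sum was. In IAIE CGRP replicate 1 Prg4 stood at 1433 CPM. Prg4 was not the only marker above IAIE CGRP replicates 2 and 3 there. All but Lum, Dpt, Pi16 and Prrx1 were, among them Dcn at 17.7 CPM against 2.43 and 4.53 CPM. CD11c control had between 4 and 7 of the 16 at 0, with Mfap5 and Prrx1 at 0 in all 3 libraries. In IAIE CGRP replicate 1 the type VI sum was 7.15 CPM and the fibrillar sum 129.7 CPM. The 9 chondrocyte markers summed to 24.8, 9.46 and 23.7 CPM in IAIE control and 4.23, 1.21 and 1.89 CPM in IAIE CGRP, where 6 or 7 of 9 were at 0 and Chad, Cilp2, Cnmd, Hapln1 and Matn1 were at 0 throughout. In CD11c cells between 3 and 5 of the 9 were at 0 in control and between 1 and 3 with CGRP.

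The 10 mural markers summed to 72.9, 56.8 and 71.2 CPM in IAIE control and 174, 105 and 67.1 CPM in IAIE CGRP, and the 10 endothelial markers to 22.6, 21.8 and 24.2 CPM and 50.8, 46.4 and 34.1 CPM. In IAIE cells these sums were thus not lower with CGRP in the way the type VI sum was. Most of the mural sum in IAIE cells was Cspg4, at 65.5, 47.9 and 49.2 CPM in control and 110, 67.5 and 57.7 CPM with CGRP. The mural sum there therefore describes that marker more than the others. Des and Tagln were at 0 in all 3 CD11c control libraries and Emcn likewise. The sums of the 4 tenocyte markers ranged from 1.17 to 2.15 CPM in CD11c control and from 10.2 to 20.5 CPM in CD11c CGRP. Most of the latter was Fmod, at 8.63, 17.8 and 17.6 CPM. Sums of 5 osteoblast markers (6.20 to 19.6 CPM) and 6 muscle markers (3.43 to 10.4 CPM) were low in all 12 libraries, those of 6 adipocyte markers lay between 13.1 and 71.6 CPM, and those of 6 Schwann cell markers, led by Pmp22, between 288 and 813 CPM. Of the tested markers 4 of 12 for fibroblasts, 3 of 4 for chondrocytes, 6 of 7 for mural cells, 1 of 8 for endothelium and 1 of 1 for tenocytes rose in CD11c cells with CGRP, where 6.29% of all tested genes rose. In IAIE cells Serpinf1 (fibroblast), Cilp2 (chondrocyte) and Fmod (tenocyte) fell and Esam (endothelial) rose. The part of any of these cells in the collagen values was not tested.

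**Figure D5:**
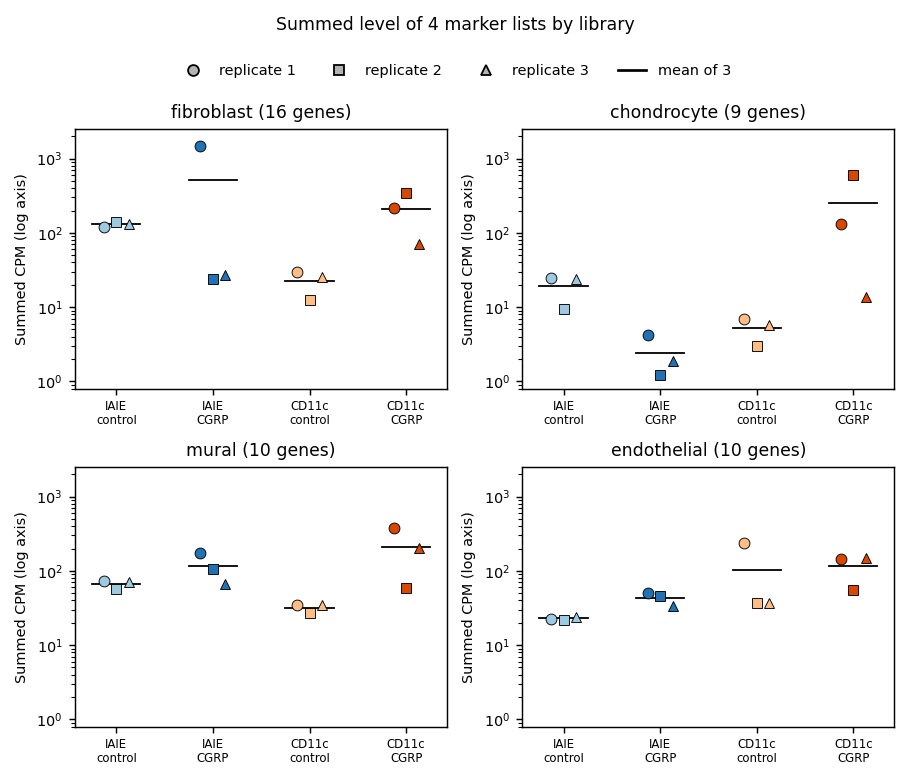
Summed level of fibroblast, chondrocyte, mural and endothelial markers in each library, as CPM on a log axis, 1 symbol a replicate and a line at the mean of 3 libraries. Fibroblast sums were 121 to 139 CPM in IAIE control and 12.6 to 29.8 CPM in CD11c control, and chondrocyte sums reached 605 CPM in CD11c CGRP replicate 2.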

How the data were processed

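RNA of MHCII+ macrophages sorted from mouse synovium was measured in 12 libraries, 4 groups of 3. The authors deposited raw counts per gene symbol, made per the labels and the methods of the study with Trim Galore, HISAT2 on mm10 and featureCounts; versions, annotation and strand setting are not given in the sources used here. A combined table repeats the 12 library files, and 6 further columns in it were not used. From the counts, edgeR 4.0.16 (R 4.3.3) was fitted over all 12 libraries (quasi-likelihood test, two-sided, TMM scaling, minimum count 10 and minimum total 15, which left 11927 genes), with Benjamini-Hochberg adjustment over all of these and a threshold of 0.05. SE is the size of the log2 fold change over the square root of F. The 5 comparisons were CGRP against control in each subset, CD11c against IAIE at each treatment, and their interaction. Alternatives used DESeq2 1.42.0, limma 3.58.1 (voom), sva 3.50.0, other scalings and filters, a replicate block, and each library left out. The procedure was tested on simulated counts, with the same dispersion for every gene and changes placed in genes expected above 10 counts. It therefore does not vouch for chains near the floor of detection or as spread between libraries as Col1a1. Class sums are CPM over all rows of a class, compared as log2(CPM + 1).

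Whether replicate numbers pair libraries was checked on 7618 genes, each library taken less its group mean. IAIE CGRP and CD11c CGRP libraries with a common number deviated alike (r = 0.236, 0.130 and 0.142). The reported fit held no block, so its p-values treat these libraries as unpaired. Pairing entered only in the alternatives that took replicate number as a block. Other group pairs had no more than 1 of 3 values over 0.1 (r from -0.04 to 0.11). No label states what a number shares, and libraries with different numbers were not compared. Loci and exon lengths are from GENCODE vM21 and promoters from RefSeq. Chains past the threshold with CGRP are given in every library; the other tested chains by values or ranges, and untested chains by counts. The collagen classes, the lists of collagen-modifying, folding and export, processing, cross-linking and receptor genes, and the cell markers were chosen with earlier results of these data known.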

Additional observations from a re-analysis of the deposited data

Results flagged for a closer look

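For 4 collagen chains the response to CGRP differed between the subsets by the interaction test in edgeR. The log2 fold change in CD11c cells minus that in IAIE cells was 6.38 for Col5a2, 7.34 for Col6a1, 7.05 for Col6a2 and 12.68 for Col6a3. Col6a3 had 4 counts in the 3 CD11c control libraries together.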

How the results depend on the processing

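In IAIE cells the 9 chains called with CGRP became 3 under a strict filter of 10 or more counts in each library (5 chains tested), 2 by limma-voom with quality weights and 5 with 1 surrogate variable, and 3 to 9 with a library left out (4 without IAIE control replicate 2; 5, 3 and 5 without IAIE CGRP replicates 1, 2 and 3). In CD11c cells 8 became 16 when every gene with at least 1 count was tested, 2 under the strict filter, 2 by limma-voom and 5 with libraries thinned to the lowest total, an alternative chosen after seeing the data, and 3 to 12 with a library left out (5 and 3 without CD11c control replicates 2 and 3; 5 and 4 without CD11c CGRP replicates 1 and 2). Between subsets, 11 in control became 4 (strict filter), 6 (limma-voom) and 10 to 12 (libraries left out), and 7 with CGRP became 14 (every gene), 2 (strict filter), 2 (limma-voom) and 5 to 9 (libraries left out). Of the 2 by limma-voom with CGRP only Col4a2 was among the 7. The interaction count of 4 became 12 (every gene), 0 (strict filter, with 4 of 5 at an unadjusted p under 0.05), 10 (DESeq2), 0 (limma-voom), 7 (adjusted p under 0.1) and 3 to 7 (libraries left out). The cause of these changes was not tested, except that the strict filter left 5 chains to test. With every gene tested, edgeR's prior degrees of freedom were infinite (10.8 in the reported fit), so a gene's own spread did not enter its test (Col1a1: deviance per degree of freedom 26.3, dispersion used 0.704), and those counts are not set against replicate error.

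Taking replicate number as a block, the counts were 8 in IAIE, 7 in CD11c, 11 and 7 between subsets and 4 for the interaction. With the number as a block within each treatment they were 10 and 7 between subsets and 8 for the interaction. No label says what a replicate number shares. With the first block, Col1a2 in IAIE (adjusted p = 0.052), Col3a1 in CD11c cells (0.0704) and Col5a3 between control subsets (0.0524, or 0.0734 with the block within each treatment) no longer passed the threshold. These comparisons involve control libraries, for which it is not known what a common number shares.

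The type VI difference in CD11c cells moved from 4.04 to 2.96 without Col6a3, and the FACIT difference in IAIE cells reversed from -0.51 to 0.71 without Col14a1, so its sign rested on that chain. With libraries left out the differences ran from -2.82 to -1.13 and 1.31 to 2.34 (fibrillar, IAIE and CD11c), -0.92 to 0.45 and 0.19 to 1.02 (network), -4.05 to -2.25 and 3.41 to 4.53 (type VI) and -0.63 to -0.39 and 0.84 to 1.67 (FACIT). Of 878 alternatives for single called chains, 758 kept the call, 120 lost it and 0 reversed. These include the adjusted p under 0.1, which keeps every call by construction. They also include the fit of every gene and omissions of libraries outside the groups compared. The share kept is therefore no measure of robustness. Depth limits the chains near 3 counts a library.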
